A study of Rattus norvegicus with 12 samples.

Results

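The genes described here were 9 tubulin genes and HDAC6, 10 of the 20263 genes in the deposited tables. They were listed by identifier, with earlier results of these data known: the alpha-tubulins TUBA1A (ENSG00000167552), TUBA1B (ENSG00000123416) and TUBA1C (ENSG00000167553), the beta-tubulins TUBB (ENSG00000196230), TUBB2A (ENSG00000137267), TUBB2B (ENSG00000137285), TUBB3 (ENSG00000258947), TUBB4B (ENSG00000188229) and TUBB6 (ENSG00000176014), and the deacetylase HDAC6 (ENSG00000094631). The symbols are the human ones of these Ensembl identifiers. The labels give rat cells, whereas the prefix ENSG is Ensembl's for human genes, and whether rat or human transcripts were counted was not settled. All 10 were among the 12854 genes that reached 0.5 CPM in at least 3 libraries and were tested.

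Poly(A)-selected RNA of H9C2, a line from embryonic rat heart that the labels call wild-type cardiomyocytes, was sequenced as 150 bp read pairs after 48 h, with 3 libraries labelled biological replicates per group. HG-Res-SIRT7-Inh cells were in 100 mM glucose with 5 µM resveratrol and 5 µM SirReal2, which the labels call a SIRT7 inhibitor and which is widely sold against SIRT2. HG-Res cells were in 100 mM glucose with 5 µM resveratrol, HG cells in 100 mM glucose alone, and Ctrl cells in 5.5 mM glucose alone. The labels describe no inhibitor-alone group, no osmotic control and no vehicle, so the inhibitor was seen only together with resveratrol and high glucose. Markers of heart muscle could not be read, because the tables do not pair identifiers with names. None of the 10 genes, 0 of 10, was among the 354 genes of the table of HG against Ctrl, which holds only genes the authors marked, so their Ctrl levels were not analysed here.

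Microtubules are hollow polymers of alpha- and beta-tubulin joined as dimers, and the genes of each kind encode very similar proteins that differ mostly in their tails and in where they are used. Tubulin mRNAs are subject to autoregulation: when free dimers accumulate, TTC5 recognises the nascent tubulin chain on the ribosome and the mRNA is degraded. Alpha-tubulin inside the microtubule is acetylated by ATAT1, and the acetyl group is removed by HDAC6, a cytoplasmic zinc-dependent enzyme, and by the NAD-dependent SIRT2. In heart muscle the microtubule network and its modified forms are known to affect the stiffness of the cell. The tables measure mRNA and hold nothing on acetylation or on polymer.

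CPM, the unit of the levels, sets the reads of a gene against all counted reads of its library. The columns are headed TPM, but the low values of every library move in steps of 1 read that are the same for all genes, so they are not scaled by gene length and a level may be compared between libraries, not between genes. The libraries held 30.3 to 33.2 M reads as recovered from those steps. That gave each of the 9 tubulins between 180 and 171986 reads per library and HDAC6 between 499 and 790. The read limit bore most on TUBB3, whose lowest library had about 180 reads and so a counting error of 7.45%. In bulk RNA, fewer cells of a type and less RNA per cell cannot be told apart.

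A single gene of the 10, the beta-tubulin TUBB2B, passed the threshold, in 1 of the 3 comparisons (1 of 10, against 10.8% of all genes tested). It rose with resveratrol and inhibitor together relative to high glucose alone. It is an isotype best known from developing neurons. Its level was 39.6, 38.9 and 35.0 CPM in HG-Res-SIRT7-Inh, 29.1, 29.1 and 31.8 CPM in HG-Res, and 26.1, 26.7 and 24.9 CPM in HG. No library of any of the 3 groups overlapped with another group: HG-Res-SIRT7-Inh was highest, HG-Res in the middle and HG lowest. How many of all genes had all 3 groups apart was not counted. Taken pair by pair, 17.7% of all genes were higher without overlap for HG-Res-SIRT7-Inh versus HG-Res. The share was 12.8% for HG-Res-SIRT7-Inh versus HG and 15% for HG-Res versus HG. The means were 37.8 ± 2.47, 30.0 ± 1.56 and 25.9 ± 0.901 CPM (SD, n = 3 each).

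Changes were tested with limma on log2(CPM + 1) over all 12854 genes, with Benjamini-Hochberg adjustment and a threshold of 0.05. The 3 groups shared their estimate of spread for each gene. The spread of HG-Res-SIRT7-Inh, the widest by median, thus entered the error of HG-Res versus HG too. For HG-Res-SIRT7-Inh versus HG, TUBB2B rose by 0.53 on the log2 scale (SE 0.0975, 95% interval 0.31 to 0.75, limma adjusted p = 0.00908), a ratio of means of 1.46. Of all genes tested, 11.1% had a larger change in either direction in this comparison. The authors' deposited table gave a log2 fold change of 0.533 and a q-value of 0.017. The authors left it unmarked there, with "-" as its result entry, as for the other members in all comparisons. The limma call was lost when HG-Res was left out of the fit (limma adjusted p = 0.068). Of all genes tested, 3.27% passed in that fit, against 10.8% with HG-Res in it. The adjusted p of TUBB2B ran from 0.000674 to 0.068 over 19 alternatives.

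The other steps of TUBB2B did not pass the threshold. For HG-Res-SIRT7-Inh versus HG-Res its log2 change was 0.32 (SE 0.0975, interval 0.11 to 0.54, limma adjusted p = 0.0834), and it passed without HG-Res-SIRT7-Inh replicate 3 (limma adjusted p = 0.0189) or with no filter on low values (limma adjusted p = 0.0387). Of all genes, 9.14% passed without that library and 3.46% with no filter. Between HG-Res and HG its log2 change was 0.21 (SE 0.0975, interval -0.01 to 0.42, limma adjusted p = 0.508). With only HG-Res and HG in the fit the limma adjusted p was 0.138. The 3 comparisons share libraries, so these values are not separate pieces of evidence.

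**Figure D1:**
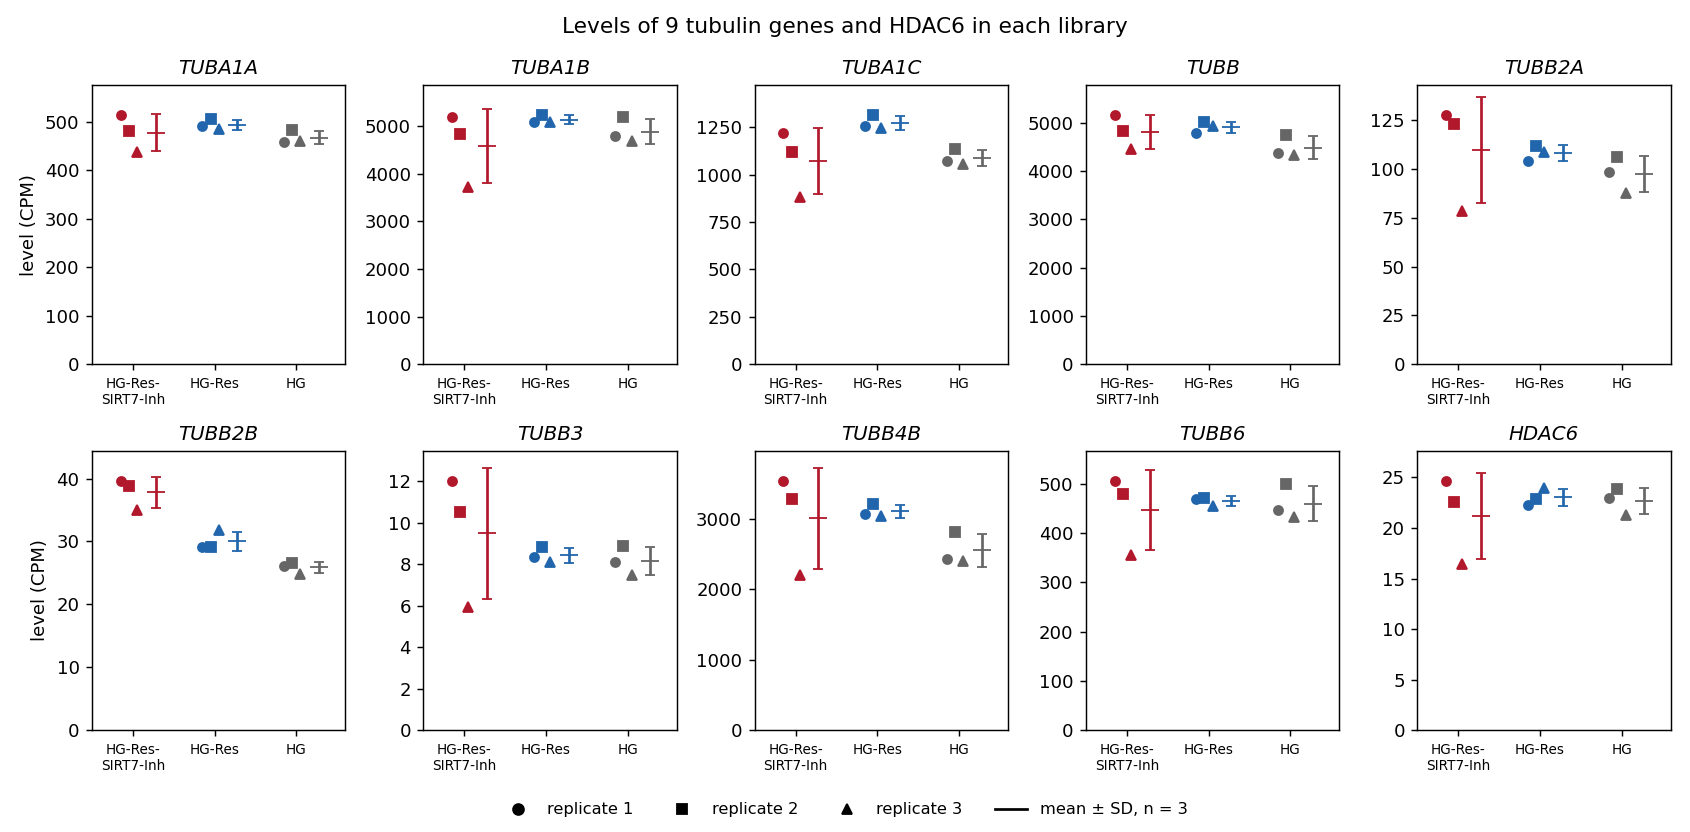
Level (CPM, axis from 0) of each gene in the 9 high-glucose libraries, with HG-Res-SIRT7-Inh on the left, HG-Res in the middle and HG on the right; symbols are replicates and bars are mean ± SD (n = 3). TUBB2B is the gene whose 3 groups do not overlap (35.0 to 39.6, 29.1 to 31.8 and 24.9 to 26.7 CPM), and HG-Res-SIRT7-Inh replicate 3 (triangle) is the lowest of its group in all 10 genes.

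A single library set much of what could be said of the other members. HG-Res-SIRT7-Inh replicate 3 was the lowest of its group in all 10 genes, where 46.1% of all genes tested had it lowest. It lay below the mean of the other 2 libraries by a median of -0.45 on the log2 scale over the 10 genes (-0.82 for TUBB3 to -0.16 for TUBB2B), against a median of -0.02 over all genes tested. The 5th and 95th percentiles of this deviation over all genes tested were -0.69 and 0.78. Leaving that library out had to raise the group mean of all 10 genes, and left 2 libraries in the group. Calls gained without it are therefore not separate evidence. HG-Res-SIRT7-Inh replicate 1 was the highest of its group in all 10 genes, where 43.1% of all genes had it highest. In HG, replicate 2 was the highest in all 10 genes (43.5% of all genes), by a median of 0.13. HG replicate 3 was the lowest in 9 of the 10 (34.2% of all genes), at a median of -0.11.

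The 10 genes spread most in the group with the inhibitor. Their coefficient of variation between replicates was 6.52% to 33.4% in HG-Res-SIRT7-Inh, 1.71% to 5.19% in HG-Res and 2.80% to 9.29% in HG. On the log2 scale the median SD of the 10 genes was 0.265 in HG-Res-SIRT7-Inh, 0.0416 in HG-Res and 0.0788 in HG, and over all genes tested it was 0.242, 0.0713 and 0.132. In HG-Res-SIRT7-Inh the widest was TUBB3 at 33.4% and the narrowest TUBB2B at 6.52%. Over the 9 libraries all 45 pairs of members had a median Pearson r of 0.803 with -0.159 as the lowest. The 36 pairs without TUBB2B had a median r of 0.827 with 0.574 as the lowest, while TUBB2B had a median r of 0.26 with the other 9. Pairs among genes outside the 10 were not computed. These correlations describe 9 libraries that share the same sets of reads, HG-Res-SIRT7-Inh replicate 3 included.

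**Figure D2:**
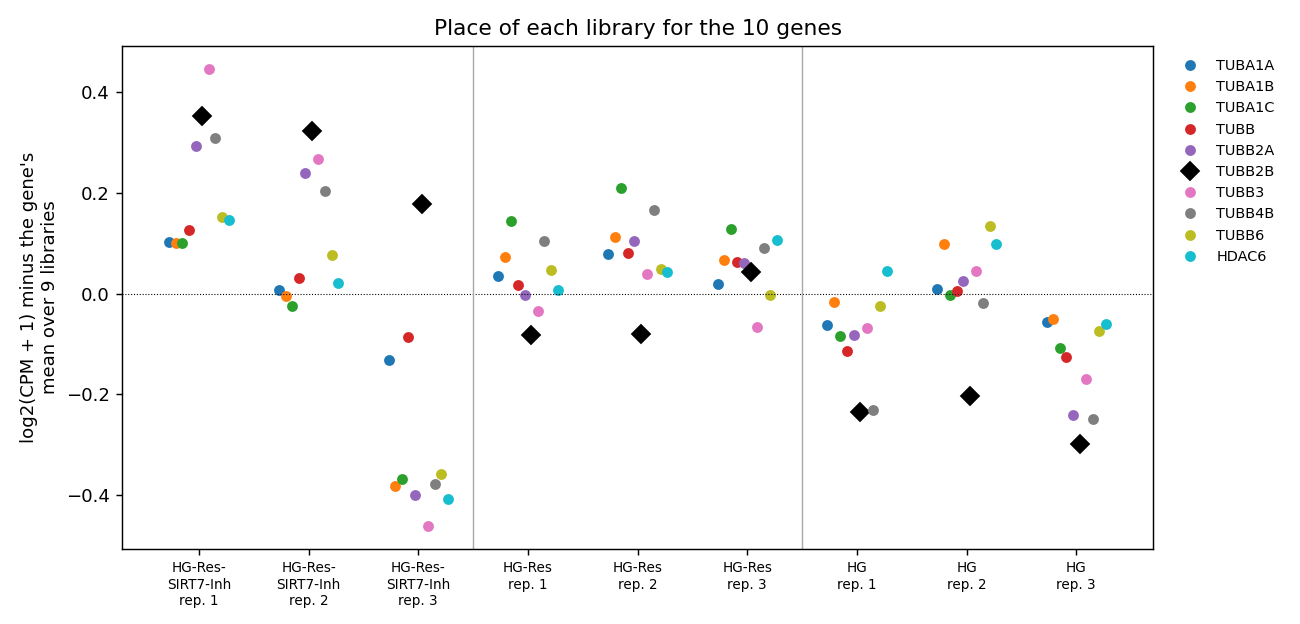
Log2(CPM + 1) of each gene minus its own mean over the 9 libraries, by library (HG-Res-SIRT7-Inh, HG-Res, HG from left to right); points are genes and TUBB2B is the black diamond. In HG-Res-SIRT7-Inh replicate 3 the other 9 genes lie below 0 while TUBB2B stays above, and the 3 TUBB2B points of HG lie below 0.

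Among the alpha-tubulins, none of the 3 passed the threshold in any comparison. TUBA1B, widely expressed in dividing cells, was at 5195, 4827 and 3719 CPM in HG-Res-SIRT7-Inh, 5091, 5234 and 5074 CPM in HG-Res, and 4789.5, 5183 and 4679 CPM in HG. HG-Res-SIRT7-Inh replicate 3 was the lowest of the 9, and the other libraries overlapped across the groups. Its log2 change was -0.18 for HG-Res-SIRT7-Inh versus HG-Res (interval -0.43 to 0.08), -0.11 for HG-Res-SIRT7-Inh versus HG (-0.36 to 0.15) and 0.07 between HG-Res and HG (-0.18 to 0.33). The limma adjusted p-values were 0.333, 0.561 and 0.908.

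TUBA1C, another broadly expressed alpha-tubulin, was at 1220.2, 1119 and 881 CPM in HG-Res-SIRT7-Inh, 1257, 1315 and 1243 CPM in HG-Res, and 1072, 1135 and 1056 CPM in HG. All 3 HG-Res libraries were above every library of the other groups. The log2 change was -0.26 for HG-Res-SIRT7-Inh versus HG-Res (SE 0.115, interval -0.52 to 0.0011, limma adjusted p = 0.204) and 0.23 between HG-Res and HG (SE 0.115, interval -0.03 to 0.48, limma adjusted p = 0.553). The authors' deposited table gave q-values of 0.25 and 0.0514 for the same comparisons. With only HG-Res and HG in the fit, the limma adjusted p for HG-Res versus HG was 0.056.

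TUBA1A, an alpha-tubulin prominent in neurons, was at 514, 482 and 437 CPM in HG-Res-SIRT7-Inh, 491, 506 and 485 CPM in HG-Res, and 459, 482 and 460.5 CPM in HG. The HG-Res libraries lay above the HG libraries by a narrow margin, and HG-Res-SIRT7-Inh spanned both. The largest of its log2 changes was 0.08, between HG-Res and HG (interval -0.12 to 0.28, limma adjusted p = 0.844). TUBA1A, TUBA1B and TUBA1C encode nearly identical proteins, how the authors assigned reads between them is not stated, and their separate values are therefore less certain than their sum. Summed, the 3 alpha-tubulins took 6929.7, 6428 and 5037 CPM in HG-Res-SIRT7-Inh, 6839, 7055 and 6802 CPM in HG-Res, and 6321, 6799.8 and 6195 CPM in HG.

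Among the 6 beta-tubulins, TUBB2B alone passed, in 1 comparison. TUBB4B, a widely expressed isotype also used in cilia, was at 3541, 3289 and 2197 CPM in HG-Res-SIRT7-Inh, 3072, 3204 and 3040.4 CPM in HG-Res, and 2435, 2818 and 2404 CPM in HG. The HG-Res libraries were all above the HG libraries, and HG-Res-SIRT7-Inh held both the 2 highest values and the lowest. Between HG-Res and HG the log2 change was 0.29 (SE 0.158, interval -0.07 to 0.64, limma adjusted p = 0.587), with a q-value of 0.055 in the authors' deposited table. With those groups alone in the fit the limma adjusted p of that change was 0.0648. Without HG-Res-SIRT7-Inh replicate 3, which narrows the shared spread, that change passed (limma adjusted p = 0.0487), as did 6.23% of all genes tested.

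For HG-Res-SIRT7-Inh versus HG the log2 change of TUBB4B was 0.21 (interval -0.14 to 0.56, limma adjusted p = 0.401). With HG-Res-SIRT7-Inh replicate 3 left out the change was 0.42 (limma adjusted p = 0.00711), at means of 3415 and 2552 CPM. Of all genes tested, 21.1% passed in that comparison without the library, against 10.8% with it.

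TUBB, a beta-tubulin common in dividing cells, was at 5159.9, 4828 and 4453 CPM in HG-Res-SIRT7-Inh, 4782, 5002 and 4937 CPM in HG-Res, and 4371, 4747 and 4330.3 CPM in HG. All 3 HG-Res libraries were above the HG libraries, the nearest pair at 4782 and 4747 CPM. Its intervals were the narrowest of the 10 genes: log2 changes of -0.03 (-0.20 to 0.14), 0.10 (-0.07 to 0.27) and 0.13 (-0.04 to 0.30) for HG-Res-SIRT7-Inh versus HG-Res, HG-Res-SIRT7-Inh versus HG, and HG-Res versus HG. The limma adjusted p-values were 0.801, 0.393 and 0.602.

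TUBB2A, the close relative of TUBB2B, was at 128, 123 and 78.6 CPM in HG-Res-SIRT7-Inh, 104, 112 and 109 CPM in HG-Res, and 98.4, 106 and 88.0 CPM in HG. TUBB3, the isotype used as a marker of neurons, was at 12.0, 10.5 and 5.94 CPM in HG-Res-SIRT7-Inh, 8.33, 8.82 and 8.12 CPM in HG-Res, and 8.11, 8.86 and 7.49 CPM in HG. In both genes replicates 1 and 2 of HG-Res-SIRT7-Inh were above all other libraries and replicate 3 was below them. With all libraries their log2 changes for HG-Res-SIRT7-Inh versus HG were 0.14 and 0.15 (SE 0.174 and 0.202, limma adjusted p = 0.612 and 0.654).

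Without HG-Res-SIRT7-Inh replicate 3, TUBB2A changed by 0.37 and TUBB3 by 0.42 against HG (limma adjusted p = 0.0216 and 0.0185). TUBB3 then also passed against HG-Res, with a log2 change of 0.38 (limma adjusted p = 0.0485), while TUBB2A, at 0.21, did not (limma adjusted p = 0.184). Without that library 21.1% of all genes tested passed against HG and 9.14% against HG-Res. TUBB2A and TUBB2B encode nearly identical proteins, so reads may have been split between them. Their replicate patterns were not alike: in HG-Res-SIRT7-Inh replicate 3 TUBB2A was lower than in all HG libraries and TUBB2B higher.

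TUBB6, a beta-tubulin found mainly outside neurons, was at 505.5, 479.7 and 354 CPM in HG-Res-SIRT7-Inh, 469, 470.5 and 454 CPM in HG-Res, and 447, 499 and 432 CPM in HG. All 3 groups overlapped. Its log2 changes were -0.07, -0.05 and 0.02 for HG-Res-SIRT7-Inh versus HG-Res, HG-Res-SIRT7-Inh versus HG, and HG-Res versus HG, each with a SE of 0.133.

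HDAC6, the enzyme that shares the acetylated alpha-tubulin substrate with SIRT2, was at 24.7, 22.5 and 16.5 CPM in HG-Res-SIRT7-Inh, 22.3, 22.9 and 24.0 CPM in HG-Res, and 22.9, 23.8 and 21.3 CPM in HG. The 3 groups overlapped, with HG-Res-SIRT7-Inh replicate 1 the highest and replicate 3 the lowest of the 9. The log2 change was -0.13 for HG-Res-SIRT7-Inh versus HG-Res (SE 0.142, interval -0.45 to 0.19, limma adjusted p = 0.549). It was -0.11 for HG-Res-SIRT7-Inh versus HG (interval -0.43 to 0.21, limma adjusted p = 0.642) and 0.02 between HG-Res and HG (interval -0.29 to 0.34, limma adjusted p = 0.988). Without HG-Res-SIRT7-Inh replicate 3 the same changes were 0.03, 0.06 and 0.02. These intervals leave room for changes of either sign and do not show that the levels were equal.

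**Figure D3:**
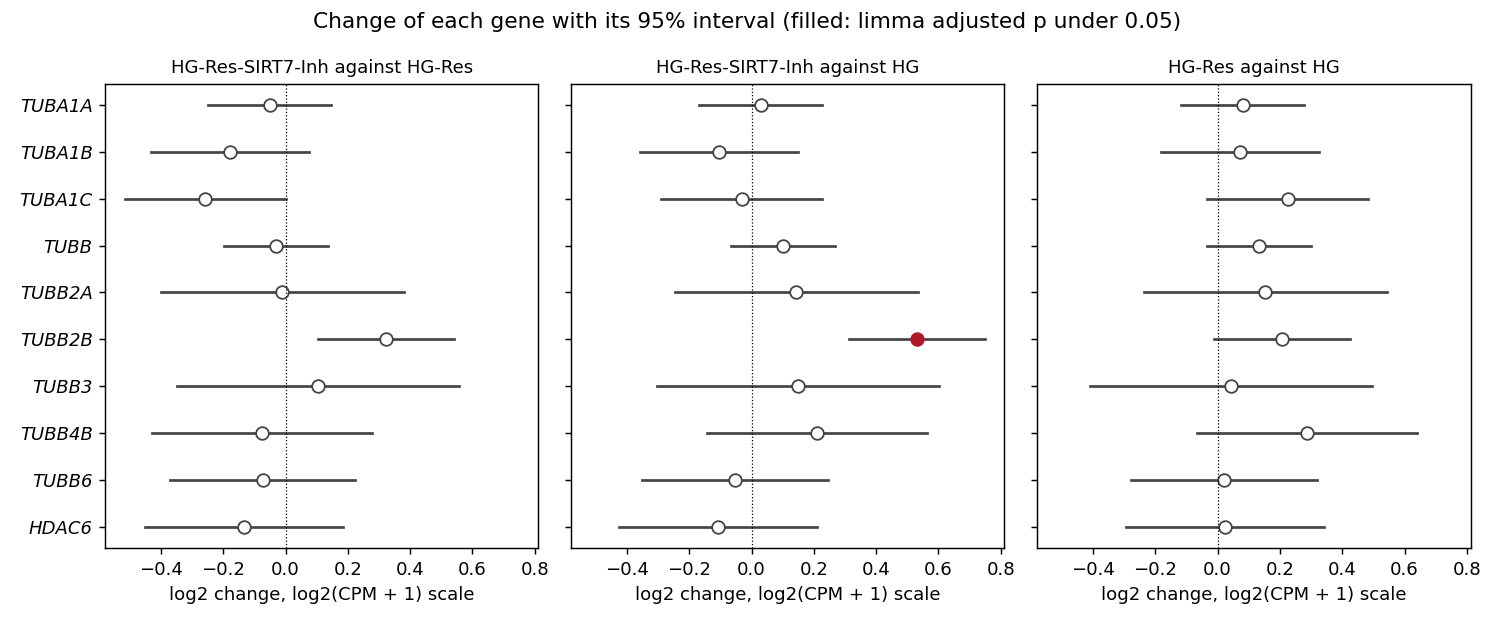
Log2 change of each gene on the log2(CPM + 1) scale with its 95% interval, in 3 panels for HG-Res-SIRT7-Inh versus HG-Res, HG-Res-SIRT7-Inh versus HG, and HG-Res versus HG; a filled point has a limma adjusted p under 0.05. TUBB2B for HG-Res-SIRT7-Inh versus HG (0.53) is the filled point, and in the HG-Res against HG panel all 10 points lie right of 0.

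The number of members called was near the background of all genes. Besides the 1 of the 10 that passed for HG-Res-SIRT7-Inh versus HG, the authors' q-values called 1 of the 10 there, against 7.84%. The authors left that gene, TUBB2B, unmarked. In that comparison 1 of the 10 had an unadjusted p under 0.05, against 27.9%. For HG-Res-SIRT7-Inh versus HG-Res none of the 10 passed limma, against 6.07%, with 1 at an unadjusted p under 0.05 (24.6% of all genes) and 0 by the authors' q-values (8.69%). For HG-Res versus HG none of the 10 passed limma, against 0.708%, with 0 at an unadjusted p under 0.05 (10.7% of all genes) and 0 by the authors' q-values (8.47%). With only HG-Res and HG in the fit, none of the 10 passed limma, against 4.64% of all genes.

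In the comparison of HG-Res with HG, all 10 genes had a mean change above 0, where 49.9% of all genes tested did. The smallest was 0.02, for TUBB6. The median change was 0.11 over the 10 genes and -0.00054 over all genes. In 5 of the 10, TUBA1A, TUBA1C, TUBB, TUBB2B and TUBB4B, the HG-Res libraries were all above the HG libraries, against 15% of all genes. Over the 9 libraries the members other than TUBB2B varied together, so the count of 10 describes these libraries only. Whether they varied together within HG-Res and HG alone was not computed. Leaving out HG replicate 3 left 7 of 10 above 0, against 54.5% of all genes.

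Only 2 of 10 were above 0 for HG-Res-SIRT7-Inh versus HG-Res, TUBB2B and TUBB3, against 55% of all genes, and 8 of 10 were once HG-Res-SIRT7-Inh replicate 3 was left out, against 59.5% of all genes. The groups did not overlap in 1 gene that was higher in HG-Res-SIRT7-Inh, TUBB2B (17.7% of all genes), and in 1 that was lower, TUBA1C (16% of all genes). Against HG, 6 of 10 were above 0 in HG-Res-SIRT7-Inh, against 54.6% of all genes, and 10 of 10 once that library was left out, against 56.4%. TUBB2B was the 1 gene of the 10 without overlap there, against 12.8% of all genes that were higher without overlap.

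In reads, the 9 tubulins together took 1.63%, 1.52% and 1.22% of each library in HG-Res-SIRT7-Inh, 1.53%, 1.59% and 1.54% in HG-Res, and 1.37%, 1.5% and 1.35% in HG. The HG-Res libraries lay above the HG libraries and inside the range of HG-Res-SIRT7-Inh. The mix within that total also differed between libraries. TUBA1B took 31.8%, 31.8% and 30.6% of the tubulin reads in HG-Res-SIRT7-Inh, 33.3%, 33.0% and 33.0% in HG-Res, and 34.9%, 34.5% and 34.7% in HG. Here the 3 groups did not overlap, and replicate 3 was the lowest of HG-Res-SIRT7-Inh. TUBB took 31.6%, 31.8% and 36.6% in HG-Res-SIRT7-Inh, 31.2%, 31.5% and 32.1% in HG-Res, and 31.9%, 31.6% and 32.1% in HG. HG-Res-SIRT7-Inh replicate 3 thus stood above the other 8 libraries in its TUBB share.

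TUBA1C took 7.48%, 7.36% and 7.25% of tubulin reads in HG-Res-SIRT7-Inh, 8.21%, 8.28% and 8.08% in HG-Res, and 7.82%, 7.56% and 7.83% in HG, again without overlap. TUBB2B took 0.243%, 0.256% and 0.288% in HG-Res-SIRT7-Inh, 0.19%, 0.183% and 0.207% in HG-Res, and 0.19%, 0.178% and 0.185% in HG, so HG-Res-SIRT7-Inh stood above both other groups, which overlapped. TUBB4B took 21.7%, 21.6% and 18.1% in HG-Res-SIRT7-Inh, 20.1%, 20.2% and 19.8% in HG-Res, and 17.8%, 18.8% and 17.8% in HG. Of the other shares, TUBA1A took 3.156% to 3.207% in HG-Res and 3.213% to 3.416% in HG. TUBB6 took 2.95% to 3.07% in HG-Res and 3.20% to 3.32% in HG. Both shares were lower in HG-Res without overlap, narrowly for TUBA1A, whose level in CPM was higher there. TUBB3 was also narrowly lower in HG-Res, and TUBB2A overlapped. HG-Res-SIRT7-Inh spanned both groups in TUBA1A, TUBB2A and TUBB3, and lay below HG in TUBB6. A share rises when another falls, gene length enters each share, and with 3 against 3 libraries no exact test can go below 0.10, so these shares are given without a test. The shares were looked at after the levels were known.

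**Figure D4:**
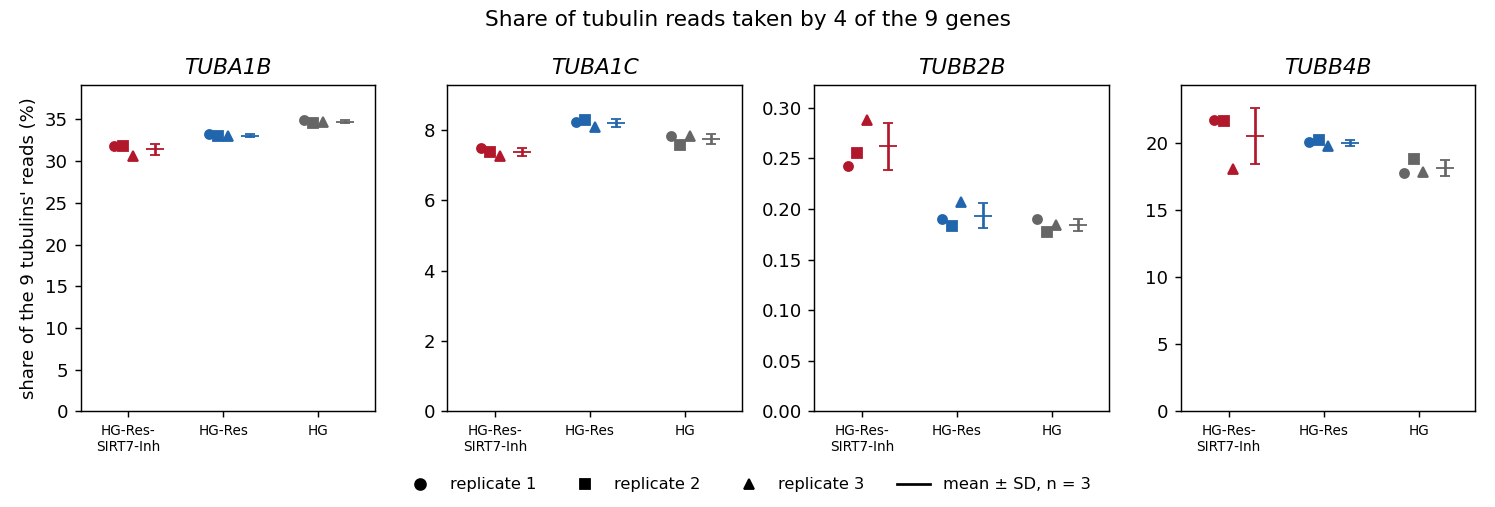
Share of the reads of the 9 tubulins (%, axis from 0) taken by TUBA1B, TUBA1C, TUBB2B and TUBB4B in each library, with HG-Res-SIRT7-Inh, HG-Res and HG from left to right; symbols are replicates and bars are mean ± SD (n = 3). TUBA1B has 3 groups that do not overlap (30.6% to 31.8%, 33.0% to 33.3% and 34.5% to 34.9%), and TUBB2B is higher in HG-Res-SIRT7-Inh (0.243% to 0.288%) than in the other groups.

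The genes most like HDAC6 over the 9 libraries, by Pearson r of log2(CPM + 1) among all tested genes outside the 10, were ENSG00000187091 (r = 0.99) and ENSG00000244038 (r = 0.985). Those most like TUBB2B were ENSG00000151348 (r = 0.991) and ENSG00000189159 (r = 0.991). These identifiers carry no name in the tables, and the highest of many correlations over 9 libraries is high by selection.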

How the data were processed

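The authors deposited 3 full tables with CPM values (headed TPM in the file headers), log2 fold changes, p-values and q-values. The low values of a library are multiples of 1 step within the rounding of 0.01 CPM, hence CPM. Per the submitters' processing notes, Trimmomatic was used and the build was rn6; aligner, counter, annotation and test are not given in the sources. Of the 20263 identifiers, 0 matched the rat RefSeq table, so other microtubule genes and cell type markers were not analysed, and no coordinate or sequence is printed.

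The 12854 genes reaching 0.5 CPM in 3 or more of 9 high-glucose libraries were fitted as log2(CPM + 1) by limma 3.58.1 (R 4.3.3) with 3 group means, trended empirical Bayes and adjustment by Benjamini-Hochberg, threshold 0.05. The design's test for whole counts did not apply. The p-values set each difference against the spread between samples labelled biological replicates, shared over the 3 groups. The fit was tested on simulated data in which each gene had the same SD in all groups. The unequal spread of the real groups was therefore not tested. All 10 members are named by rule; members and lists were chosen with earlier results of these data known.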

Additional observations from a re-analysis of the deposited data

How the results depend on the processing

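Each of the 30 changes (10 genes, 3 comparisons) was recomputed under 19 alternatives. Of the 570 values, 523 kept direction and side of the threshold, 29 changed sign, 17 newly passed and 1 no longer passed. No member was called for HG-Res versus HG under any filter, pseudocount, scaling or voom setting, where 0.622% to 0.691% of all genes were. For HG-Res-SIRT7-Inh versus HG the calls among the 10 went to 0 with only the 2 groups compared in the fit. The share of all genes that passed there was 3.27%, against 10.8% with all 3 groups. For HG-Res-SIRT7-Inh versus HG-Res the calls went to 1 with no filter on low values, beside 3.46% of all genes. The cause of these moves was not tested. The edgeR test was not run, because rounding keeps exact reads from being recovered, and voom used approximate reads. The labels do not say whether same-numbered libraries pair. Correlations of same-numbered deviations ran from -0.547 to 0.636, and so few libraries cannot settle it. With the replicate block, 0, 1 and 0 members were called for HG-Res-SIRT7-Inh versus HG-Res, HG-Res-SIRT7-Inh versus HG and HG-Res versus HG, as without it. Of all genes tested, 5.05%, 8.65% and 0.35% passed with the block, against 6.07%, 10.8% and 0.708% without it.

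Leaving out 1 library in turn gave 0 to 2, 1 to 4 and 0 to 1 calls in the same order, each highest without HG-Res-SIRT7-Inh replicate 3. The calls among all genes moved too: without that library 9.14%, 21.1% and 6.23% passed, against 6.07%, 10.8% and 0.708% with it, and over the 9 libraries left out in turn the shares ran from 2.15% to 13.8%, 4.27% to 21.1% and 0.148% to 6.23%. The log2 changes that turned sign had these ranges. For HG-Res-SIRT7-Inh versus HG-Res they were -0.11 to 0.011 for TUBA1A, -0.081 to 0.025 for TUBB, -0.13 to 0.21 for TUBB2A, -0.076 to 0.38 for TUBB3, -0.21 to 0.14 for TUBB4B, -0.17 to 0.084 for TUBB6 and -0.25 to 0.032 for HDAC6. For HG-Res-SIRT7-Inh versus HG they were -0.025 to 0.092 for TUBA1A, -0.20 to 0.038 for TUBA1B, -0.13 to 0.10 for TUBA1C, -0.032 to 0.42 for TUBB3, -0.15 to 0.10 for TUBB6 and -0.22 to 0.056 for HDAC6. For HG-Res versus HG they were -0.0090 to 0.099 for TUBB3, -0.023 to 0.081 for TUBB6 and -0.019 to 0.060 for HDAC6.

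With HG-Res-SIRT7-Inh replicate 3 left out along with replicate 2 of HG, a pair chosen with earlier results known, 2, 5 and 4 of the 10 were called in that order, beside 18.8%, 31% and 21.2% of all genes. Those called were TUBB2B and TUBB3 for HG-Res-SIRT7-Inh versus HG-Res. For HG-Res-SIRT7-Inh versus HG the called members were TUBB, TUBB2A, TUBB2B, TUBB3 and TUBB4B. For HG-Res versus HG the called members were TUBA1C, TUBB, TUBB2B and TUBB4B. Changes that turned sign were 0.011 for TUBA1A, 0.025 for TUBB, 0.21 for TUBB2A, 0.14 for TUBB4B, 0.084 for TUBB6 and 0.032 for HDAC6 for HG-Res-SIRT7-Inh versus HG-Res. For HG-Res-SIRT7-Inh versus HG they were 0.081 for TUBA1B, 0.13 for TUBA1C, 0.16 for TUBB6 and 0.092 for HDAC6. None of the 29 changes that turned sign passed the threshold.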
